A study of Saccharomyces cerevisiae with 6 samples.

Results

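The introns of 7 ribosomal protein genes (RPG) were followed, grouped for feedback of the protein or its second copy on splicing or pre-mRNA level. They were *RPL30*, *RPL22A* and *RPL22B* of the large subunit, and *RPS14A*, *RPS14B*, *RPS9A* and *RPS9B* of the small subunit. In the *RPS14* pair the feedback named below is on *RPS14B*. The members were taken by gene name, and each holds 1 of the 293 introns of 282 genes in the tables. With their alternative junctions they account for 225 of the 5274 junctions listed. Spliced and unspliced reads are given at each intron, so the comparison asks how the introns of this group fared when the splicing factor Prp18p was absent.

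Ribosomal proteins bind rRNA, and a few of them also bind their own pre-mRNA when made in excess of rRNA. Rpl30p binds a kinked stem at the start of its own transcript and stops the spliceosome there, Rps14p acts on the pre-mRNA of *RPS14B*, Rpl22p acts on the introns of the *RPL22* copies, of which *RPL22B* is the more strongly repressed, and Rps9p feeds back on the *RPS9* pre-mRNA. Prp18p acts in the second step of splicing, where exon 1 is joined to the next exon at the 3′-splice site (3′SS). Upf1p is the helicase of nonsense-mediated decay (NMD), which removes transcripts that stop translation early.

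The data are 3 *upf1Δ* and 3 *prp18Δupf1Δ* libraries from yeast of the BY4741 background, a laboratory strain of *Saccharomyces cerevisiae*, harvested in exponential growth in YPD, a rich medium. Both strains carry *upf1Δ*, marked by HIS3MX6 in the genotype label, so NMD is absent from either side, while *prp18Δ*, a kanMX6 replacement, is the only labelled difference. Neither *PRP18* nor *UPF1* holds an intron, so the deletions could not be checked in these tables. Whether the libraries of a strain came from separate cultures is not stated, so the p-values may cover technical spread alone. A strain with Upf1p was not analysed here.

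A library held 791819 to 1502384 annotated junction reads and 66718 to 138619 unspliced reads, and the members gave 4.93 to 5.93% of the annotated and 7.73 to 14.9% of the unspliced reads. Replicate 1 of each strain stood apart from replicates 2 and 3. It had the highest splicing efficiency (SE, annotated junction reads over annotated plus unspliced reads) of its strain in 7 of 7 member introns in *upf1Δ* and in 7 of 7 in *prp18Δupf1Δ*, as in 218 and 232 of the 272 introns tested. The calls below are therefore also given without replicate 1 of both strains, an alternative chosen after seeing the data.

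The 5′-splice sites (5′SS) are shown because all members but *RPS14A* depart from the yeast consensus there. Each line gives the coding part of exon 1 and the first bases of the intron in the R64 build, read on the gene's strand, with the 5′SS hexamer in capitals. The intron positions are chrVII:439094-439323 (+) for *RPL30*, chrXII:263206-263594 (+) for *RPL22A*, chrVI:64600-64920 (−) for *RPL22B*, chrIII:177907-178213 (−) for *RPS14A*, chrX:73797-74204 (+) for *RPS14B*, chrXVI:404957-405457 (+) for *RPS9A* and chrII:604515-604927 (+) for *RPS9B*.
RPL30: atgGTCAGTataacatgatttta
RPL22A: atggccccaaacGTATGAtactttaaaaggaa
RPL22B: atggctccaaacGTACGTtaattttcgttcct
RPS14A: atgtctaGTATGTttaatcacatagtg
RPS14B: atggctaacgGTACGTgaaaggggtgatat
RPS9A: atgccaaGTACGTcgttaatcttctcc
RPS9B: atgccaaGTACGTattagactatatcg

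Only *RPS14A* carried the consensus GTATGT, so 1 of 7 members did, against 79 of 97 introns of the other RPGs (81.4%) and 142 of 189 introns of other genes (75.1%). The hexamer GTACGT stood in 4 of the 7 members, against 11.3% of the other RPG introns. The remaining hexamers were GTATGA in *RPL22A* and GTCAGT in *RPL30*. All 7 introns lie within the first codons of the gene: the coding part of exon 1 was 3 nt in *RPL30*, 12 nt in both *RPL22* copies, 10 nt in *RPS14B* and 7 nt in *RPS14A*, *RPS9A* and *RPS9B*.

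The other ends of the introns are shown from the branch site through the 3′SS to the first bases of exon 2, with the branch heptamer and the 3′SS triplet in capitals, because the alternative 3′SSs described below lie here.
RPL30: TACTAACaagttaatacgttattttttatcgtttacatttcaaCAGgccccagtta
RPL22A: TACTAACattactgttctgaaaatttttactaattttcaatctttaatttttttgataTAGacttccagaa
RPL22B: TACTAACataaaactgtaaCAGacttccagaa
RPS14A: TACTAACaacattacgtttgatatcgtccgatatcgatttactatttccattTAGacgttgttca
RPS14B: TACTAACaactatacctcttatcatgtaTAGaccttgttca
RPS9A: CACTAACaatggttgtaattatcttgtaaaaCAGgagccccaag
RPS9B: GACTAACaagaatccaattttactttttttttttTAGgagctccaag

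*RPS9A* and *RPS9B* departed from the branch heptamer TACTAAC in its first base, so 5 of 7 members kept it, against 92 of 97 other RPG introns. The branch point lay 16 nt from the 3′SS in *RPL22B* and 55 nt in *RPL22A*, the shortest and longest such distances among the members, with 25 to 49 nt in the other 5. Intron lengths ran from 230 nt in *RPL30* to 501 nt in *RPS9A*.

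Within 2 of the 3 pairs the introns also shared long identical runs, shown here because paralogous introns are otherwise little alike. The 22-nt run lies from base 259 of the *RPL22A* intron (chrXII:263464-263485) and base 225 of the *RPL22B* intron, and the 21-nt run from bases 160 and 157. In the *RPS9* pair the 26-nt run lies from base 185 of the *RPS9A* intron (chrXVI:405141-405166) and base 173 of *RPS9B*, and the 20-nt run from bases 78 and 68.
RPL22 run of 22 nt: gtgattgttaatagcagtaggc
RPL22 run of 21 nt: ttctgtattttaaaaattcac
RPS9 run of 26 nt: tttacactgaactcccgacacttcag
RPS9 run of 20 nt: tcgggtcctcataaatattt
The longest shared run was 10 nt in the *RPS14* pair. Among the 45 RPG pairs with 1 intron in each copy, the median of the longest run was 10 nt, and the *RPS9* and *RPL22* pairs ranked 2 and 3 behind *RPL14* with 30 nt.

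All 7 unspliced transcripts met a stop codon inside the intron when read from the start codon, after 5 codons in *RPL30*, *RPL22A*, *RPS14B* and *RPS9B*, 6 in *RPL22B*, 10 in *RPS9A* and 22 in *RPS14A*. The spliced reading frames held 105 codons in *RPL30*, 121 and 122 in *RPL22A* and *RPL22B*, 137 and 138 in *RPS14A* and *RPS14B*, and 197 and 195 in *RPS9A* and *RPS9B*. Unspliced transcripts of these genes therefore hold an early stop, and they were counted in strains without NMD. Reads across an unspliced 3′SS can also come from RNA past the first splicing step, which has lost its intact 5′SS. Unspliced reads are a mean over both sites, so these forms cannot be told apart here.

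Annotated splicing was lower in *prp18Δupf1Δ* in 4 of the 7 members (*RPL22B*, *RPS9A*, *RPL22A* and *RPS9B*) and did not pass the test in *RPS14A*, *RPS14B* and *RPL30*. The test was edgeR's quasi-likelihood test on spliced against unspliced reads over all 272 introns, with Benjamini-Hochberg adjustment and a threshold of 0.05, and it called 81.6% of all introns lower and 0 higher (0 also at an unadjusted p under 0.05). The members' share of 4 of 7 stood beside that background, a difference that was not tested, and their median log2 change of spliced over unspliced reads was −1.02, against −1.64 over the 97 other RPG introns and −1.92 over all introns. Where spliced and unspliced columns were scaled apart by TMM, which moved the median of all introns from −1.92 to −0.03 and so reads each change against the other introns, *RPL30*, *RPS14B*, *RPS9B* and *RPL22A* turned to higher calls, *RPS14A* to an uncalled positive value and *RPL22B* to an uncalled −0.39, and *RPS9A* alone stayed a lower call. On that scaling 1 of 7 members was lower and 4 were higher, beside 61 of the 272 introns (22.4%) called lower and 61 (22.4%) called higher.

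**Figure D1:**
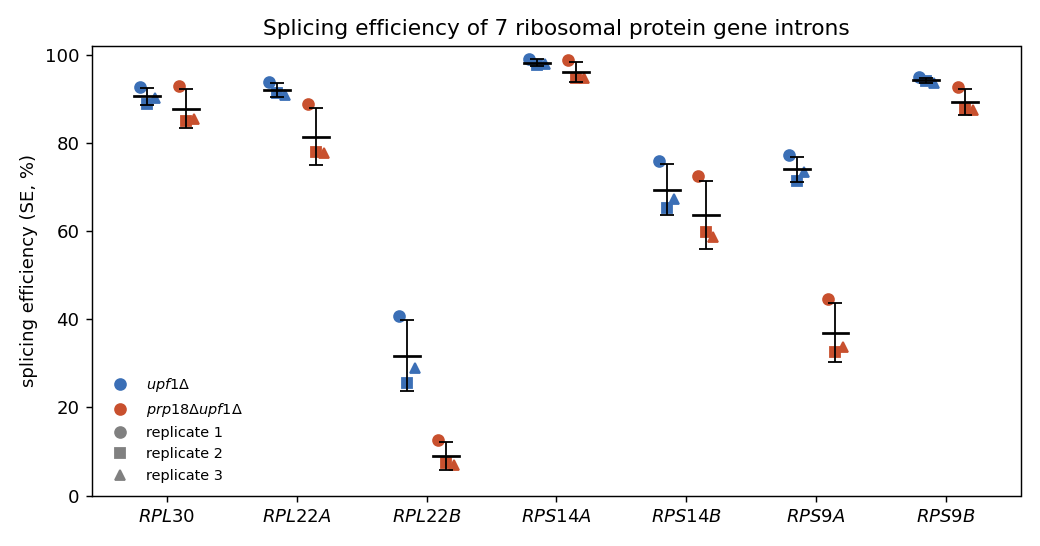
SE of the annotated intron of each gene in percent (vertical axis), with 1 symbol per library, the mean as a black line and the SD over 3 libraries as a bar, for *upf1Δ* (blue) and *prp18Δupf1Δ* (red). *RPS9A* went from a mean of 74.0% to 37.0% and *RPL22B* from 31.8% to 8.94%, while the libraries of *RPL30*, *RPS14A* and *RPS14B* overlapped between the strains.

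*RPL22A* and *RPL22B* encode the same large subunit protein, and the B copy had the lowest SE of the 7 introns in either strain. SE of *RPL22B* was 40.7%, 25.5% and 29.1% in the *upf1Δ* replicates 1 to 3 and 12.6%, 7.32% and 6.85% in those of *prp18Δupf1Δ*. All 3 values of one strain lay below all 3 of the other, and even in *upf1Δ* most of its reads were unspliced. The log2 change of spliced over unspliced reads was −2.28 (standard error 0.40, adjusted p = 0.00126 by edgeR), and it was −2.29 without replicate 1 of both strains.

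The A copy was spliced far more fully. SE of *RPL22A* was 93.7%, 91.3% and 90.8% in the *upf1Δ* replicates and 88.8%, 77.8% and 77.6% in the *prp18Δupf1Δ* replicates, so the strains did not overlap, and *prp18Δupf1Δ* replicate 1 sat nearest to *upf1Δ*. The log2 change was −1.34 (standard error 0.41, adjusted p = 0.0151 by edgeR), and the call was lost without *upf1Δ* replicate 1 (adjusted p = 0.059 by edgeR), *prp18Δupf1Δ* replicate 2 (0.0616) or *prp18Δupf1Δ* replicate 3 (0.0609). It was −1.54 and called without replicate 1 of both strains.

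In the *RPS9* pair, which encodes a small subunit protein that binds early in ribosome assembly, the A copy stood out. SE of *RPS9A* was 77.2%, 71.4% and 73.4% in the *upf1Δ* replicates and 44.7%, 32.5% and 33.7% in the *prp18Δupf1Δ* replicates. The mean thus dropped by 37.0 points, the largest drop in SE among the 7 members, from 74.0 ± 2.93% to 37.0 ± 6.69% (SD, n = 3). The log2 change was −2.29 (standard error 0.30, adjusted p = 0.000305 by edgeR), and 96 of the 272 introns, 19 of them in RPGs, had a more negative change. Without replicate 1 of both strains it was −2.41.

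*RPS9B* kept a higher SE than its A copy in every library. Its SE was 94.9%, 94.0% and 93.7% in the *upf1Δ* replicates and 92.7%, 87.6% and 87.5% in the *prp18Δupf1Δ* replicates, with no overlap. The log2 change of −0.93 (standard error 0.33) had an adjusted p of 0.0295 by edgeR. That call was lost in 5 of the 6 fits that left out 1 library, with adjusted p of 0.0723 to 0.116 by edgeR, and held only without *prp18Δupf1Δ* replicate 1, while without replicate 1 of both strains the change was −1.12 and was called.

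*RPS14A* and *RPS14B* encode a small subunit protein of the platform, and Rps14p is known to repress the B copy. SE of *RPS14A* was 99.1%, 97.6% and 97.9% in the *upf1Δ* replicates and 98.8%, 94.7% and 94.8% in the *prp18Δupf1Δ* replicates. Replicate 1 of *prp18Δupf1Δ* lay inside the *upf1Δ* range and the other libraries of that strain lay below it. Its change was −1.02 on the log2 scale (standard error 0.68, adjusted p = 0.194 by edgeR). With 1 library left out it ran from −0.58, without *upf1Δ* replicate 1, to −1.71, without *prp18Δupf1Δ* replicate 1, and was called only in that last fit (adjusted p = 0.00462 by edgeR).

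SE of *RPS14B* was 75.9%, 65.2% and 67.2% in the *upf1Δ* replicates and 72.4%, 59.7% and 58.6% in the *prp18Δupf1Δ* replicates. The strains overlapped through replicate 1 of *prp18Δupf1Δ*, although within each replicate number *prp18Δupf1Δ* was lower, with differences of −3.46, −5.49 and −8.59 points. The estimate was −0.38 on the log2 scale (standard error 0.35, adjusted p = 0.332 by edgeR). It was −0.15 without *upf1Δ* replicate 1 and −0.66 without *prp18Δupf1Δ* replicate 1, the ends of its range with 1 library left out, and was called only in the latter (adjusted p = 0.0491 by edgeR).

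*RPL30*, a gene with no second copy, had an estimate of the same size. Its SE was 92.7%, 88.9% and 90.2% in the *upf1Δ* replicates and 93.0%, 85.0% and 85.4% in the *prp18Δupf1Δ* replicates, and the highest of these 6 values was *prp18Δupf1Δ* replicate 1. The log2 change was −0.38 (standard error 0.41, adjusted p = 0.414 by edgeR), and 251 of the 272 introns had a more negative change. Leaving out 1 library gave −0.16 (without *prp18Δupf1Δ* replicate 2) to −0.77 (without *prp18Δupf1Δ* replicate 1), with a call only in the latter (adjusted p = 0.00857 by edgeR).

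In the 3 uncalled introns the strains overlapped through replicate 1 of *prp18Δupf1Δ*. A fit with the replicate number as a block was run as an alternative. The check described with the methods set apart replicate 1 alone, and a pairing of the other replicates by number is not shown. In the blocked fit *RPS14A* (adjusted p = 0.00117 by edgeR) and *RPS14B* (−0.38, adjusted p = 0.0313 by edgeR) were called lower, and *RPL30* (−0.37, adjusted p = 0.169 by edgeR) was not. That made 6 of 7, beside 91.2% of all introns in the blocked fit. Without replicate 1 of both strains all 7 members were called lower, with *RPL30* at −0.58, *RPS14A* at −1.28 and *RPS14B* at −0.44, beside 94.1% of all introns. Exact two-sided permutation tests on SE gave p = 0.1 for the 4 introns whose strains did not overlap, the smallest value that 3 libraries against 3 can give. Over all introns, SE did not overlap between the strains and was lower in *prp18Δupf1Δ* in 82.7%.

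**Figure D2:**
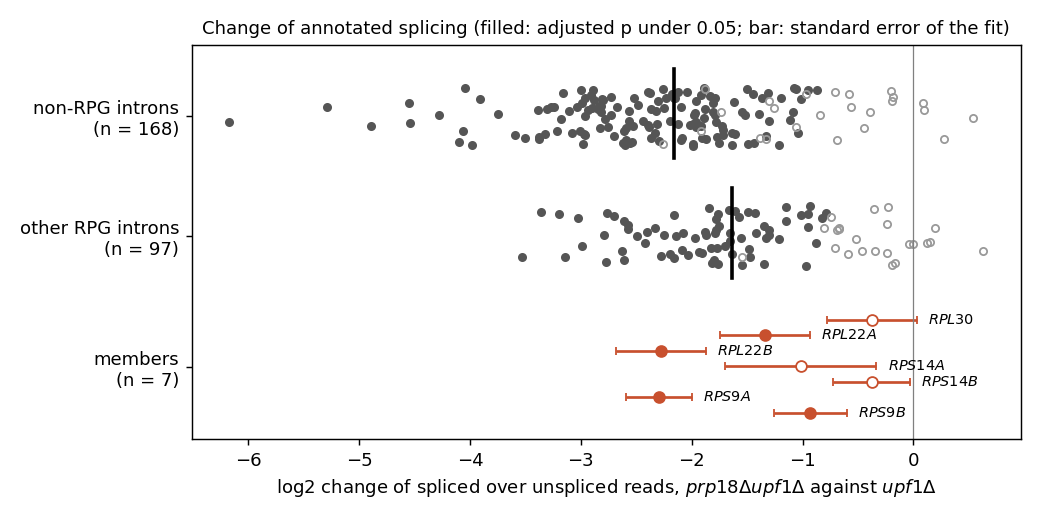
Log2 change of spliced over unspliced reads between the strains for each intron (horizontal axis), with the 7 members and their standard errors at the bottom, the 97 other RPG introns in the middle and the 168 introns of other genes on top. Filled symbols passed the edgeR threshold and black lines are medians, at −1.64 and −2.16. *RPL30* and *RPS14B* lie to the right of most of the other RPG introns, some of which lie further right.

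Against the other RPGs the members were not alike. In the other large subunit genes 41 of 56 introns were called lower with a median log2 change of −1.55, and in the other small subunit genes 33 of 41 with a median of −1.77. *RPS9A* and *RPL22B* lay beyond both medians, with 19 and 20 of the 104 RPG introns more negative, and the other 5 members lay short of both. *RPS14B* and *RPL30* had 89 and 90 RPG introns more negative. The median SE in *upf1Δ* was 90.6% over the 7 members and 96.9% over the 97 other RPG introns, a difference that was not tested, and *RPS14A* lay above the latter value in each *upf1Δ* library. The 11 other RPG introns with the 5′SS GTACGT, the hexamer of 4 members, were all called lower, with a median log2 change of −1.61 and a median SE of 96.6% in *upf1Δ*. Of the 79 other RPG introns with the consensus GTATGT, 57 were called lower. Their median log2 change was −1.65 and their median SE 96.9% in *upf1Δ*, and the difference between the hexamers was not tested.

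The introns nearest to each member over the 6 libraries, by the root mean square difference of log2 spliced over unspliced reads among 271 other introns, differed by member. Nearest to *RPS9A* were *TAF14* (0.22) and *YBL059W* (0.34), and nearest to *RPL22B* were *YBR062C* (0.52) and *TDA5* (0.63), all outside the RPGs. For *RPS9B* they were *RPS30B* (0.17) and *RPL13A* (0.17), and for *RPS14A* they were *RPL19B* (0.26) and *RPL13B* (0.28). *RPL22A* lay nearest to *RPL18B* (0.29) and *YPR098C* (0.30), *RPL30* to *RPS8A* (0.35) and *APS3* (0.48), and *RPS14B* to *RPL28* (0.33) and *GIM4* (0.48).

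The changes were also compared within pairs. The log2 ratio of spliced over unspliced reads of the A copy minus that of the B copy was −2.45, −2.66 and −2.43 in *upf1Δ* and −3.97, −3.88 and −3.79 in *prp18Δupf1Δ* for *RPS9*, so that it was −1.36 in mean between the strains, and −1.51, −1.21 and −1.36 within replicates 1 to 3. For *RPL22* the same difference was 4.45, 4.94 and 4.59 against 5.78, 5.47 and 5.56, higher by 0.95 in mean, with the B copy losing more. Neither pair overlapped between the strains, with p = 0.1 by the exact permutation test and 0.15 after Benjamini-Hochberg adjustment over the 3 pairs. In *RPS14* the strains overlapped, the mean difference changed by −0.61, and the exact permutation p was 0.3. Over the 45 RPG pairs with 1 intron each, the size of the difference had a median of 0.67, and *RPS9*, *RPL22* and *RPS14* ranked 9, 16 and 24.

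Alternative junctions were measured by FAnS, the reads of the alternative junction over those of the annotated junction of the same intron, given here in percent. Of 218 alternative junctions listed for the members, 39 passed the filters on overhang, mismatches and at least 6 gapped reads: 12 in *RPL30*, 9 in *RPS9B*, 7 in *RPL22B*, 4 in *RPL22A*, 3 in *RPS14A*, and 2 each in *RPS14B* and *RPS9A*. FAnS was called lower in *prp18Δupf1Δ* in 6 of the 39 and higher in 4, beside 10.7% lower and 21.0% higher among all 884 alternative junctions tested. By kind, 4 of the 10 alternative 5′SSs of members were lower and 0 higher, as 26.3% and 2.23% were among all 179. Among 18 alternative 3′SSs of members 1 was lower and 4 were higher, beside 7.65% and 32.0% of all 562.

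**Figure D3:**
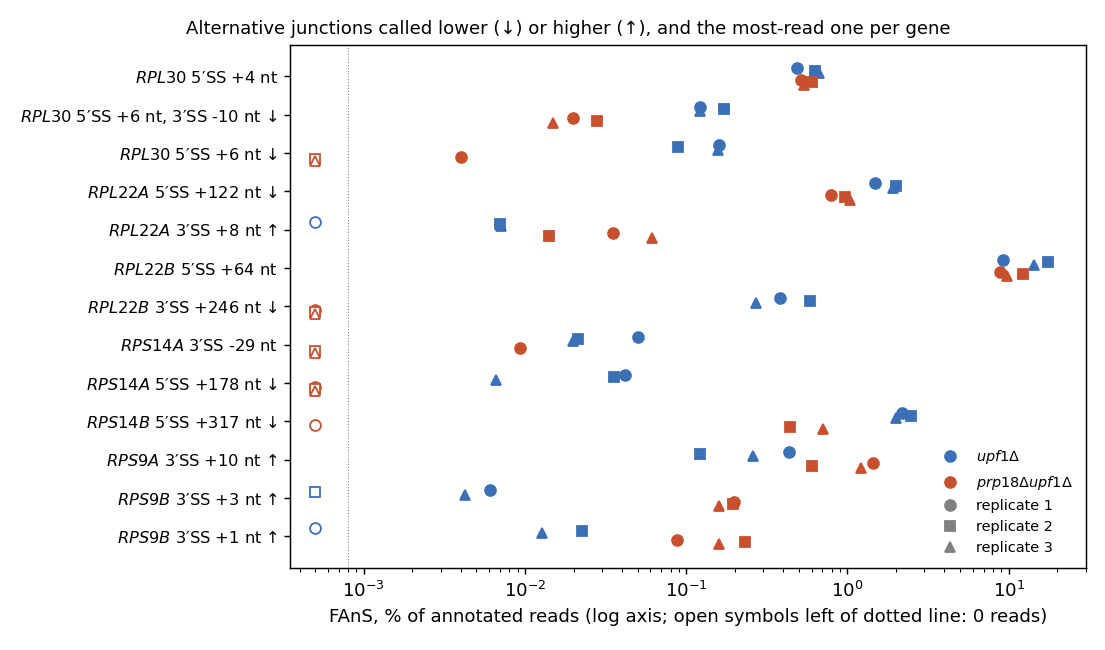
FAnS of 13 alternative junctions in percent on a log axis, 1 symbol per library, labelled by gene and by the distance of the used site from the annotated one. Open symbols stand for libraries with 0 reads; arrows mark the 6 junctions called lower and the 4 called higher.

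The alternative 5′SSs of the most-read junctions to an annotated 3′SS are shown in context, with the hexamer in capitals. The lines for *RPL30* give the opening of the *RPL30* intron, where both sites lie a few bases inside it.
RPL30 site at +4: gtcaGTATAAcatgatttta
RPL30 site at +6: gtcagtATAACAtgattttata
RPL22A site at +122: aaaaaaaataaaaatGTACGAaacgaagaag
RPL22A site at +71: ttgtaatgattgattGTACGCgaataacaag
RPL22B site at +64: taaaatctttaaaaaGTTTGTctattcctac
RPS14B site at +317: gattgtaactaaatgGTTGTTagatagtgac

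*RPL30* used 2 sites 4 and 6 nt into its intron. The junction from the site at +6, ATAACA, to the annotated 3′SS had 46, 24 and 48 reads in *upf1Δ* and 1, 0 and 0 in *prp18Δupf1Δ*. Thus 118 of its 119 reads came from *upf1Δ*. Pooled FAnS was 72.4-fold lower in *prp18Δupf1Δ* (95% counting interval 12.8 to 2885), with a fitted log2 change of −5.76 (standard error 0.81, adjusted p = 2.59e-08 by edgeR). Its product keeps the reading frame and ends at the annotated stop after 107 codons in place of 105.

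The same +6 site was also joined to a TAC 10 nt upstream of the annotated 3′SS, in 35, 46 and 37 reads in *upf1Δ* against 5, 4 and 2. That junction fell by 2.68 on the log2 scale (standard error 0.53, adjusted p = 4.03e-05 by edgeR), and it can be placed in more than 1 way because 2 bases at its ends are identical. The site at +4, GTATAA, did not pass the test, with 0.592 ± 0.094% FAnS in *upf1Δ* and 0.553 ± 0.048% in *prp18Δupf1Δ* (SD, n = 3) and a log2 change of −0.09 (adjusted p = 0.879 by edgeR). It was the most-read alternative junction of *RPL30* with 509 and 288 reads, and its reading frame stops after 5 codons. The +4 junction too can be placed in more than 1 way, with 1 identical base at its ends. Annotated *RPL30* reads were placed by the aligner STAR alone in 98.0% of cases, a share that 54 of 281 introns exceeded, while 1068 of the 1143 gapped reads at the +4 site were placed by both aligners.

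*RPL22A* also used internal 5′SSs. The junction from GTACGA at +122 had 165, 289 and 267 reads in *upf1Δ* and 90, 69 and 68 in *prp18Δupf1Δ*, and its FAnS went from 1.80 ± 0.28% to 0.933 ± 0.129% (SD, n = 3), without overlap. The log2 change was −0.96 (standard error 0.28, adjusted p = 0.00534 by edgeR), but DESeq2 (adjusted p = 0.174) and limma-voom (0.0731) did not call it. The second site, GTACGC at +71, held 0.417 ± 0.072% and 0.401 ± 0.080% and a log2 change of −0.04 (adjusted p = 0.943 by edgeR). Both leave the stop after 5 codons in place, since it lies ahead of them in the intron.

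*RPL22B* had the highest FAnS of the 39 junctions, at GTTTGT 64 nt into its intron, where 169, 329 and 317 reads in *upf1Δ* and 44, 38 and 26 in *prp18Δupf1Δ* were found. FAnS was 13.8 ± 4.22% and 10.3 ± 1.75% (SD, n = 3), with overlap and a log2 change of −0.39 (adjusted p = 0.314 by edgeR), so that its reads and the annotated ones were both fewer in *prp18Δupf1Δ*. Counted against annotated plus unspliced reads together, it fell by 2.21 on the log2 scale (standard error 0.24, adjusted p = 2.76e-08 by edgeR), and so did 4 further junctions of *RPL22B*, out of 10 member junctions that were lower on that scale, beside 13.8% of all 884.

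Both *RPL22* copies open exon 2 with the same bases, which hold a CAG 8 nt downstream of the annotated 3′SS. In *RPL22B* it was the second most-read alternative junction, with a FAnS of 2.45 ± 0.54% and 2.65 ± 1.63% (SD, n = 3) and a log2 change of 0.03 (adjusted p = 0.979 by edgeR). In *RPL22A* it had 0, 1 and 1 reads in *upf1Δ* and 4, 1 and 4 in *prp18Δupf1Δ*, a pooled FAnS 7.09-fold higher (95% counting interval 1.47 to 67.4). That call (adjusted p = 0.0416 by edgeR) was lost without any of *upf1Δ* replicates 1 to 3 or *prp18Δupf1Δ* replicates 1 or 3 (adjusted p = 0.0656 to 0.164 by edgeR), and DESeq2 did not make it (adjusted p = 0.102).

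A further junction of *RPL22B*, to an AAG 246 nt inside exon 2, had 7, 11 and 6 reads in *upf1Δ* and 0 in each *prp18Δupf1Δ* library. Against a floor of 3 reads over the group it was at least 1.45-fold lower. The edgeR call (adjusted p = 0.0455) was lost without any single library other than *upf1Δ* replicate 3, with adjusted p of 0.0746 to 0.172, and DESeq2 did not make it (adjusted p = 0.1). Annotated reads of *RPL22B* are few in *prp18Δupf1Δ*, 265 to 496 per library, so a FAnS of this size lies near the limit of detection there.

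In *RPS14A* the counts at alternative sites were small. A 5′SS 178 nt into the intron, GTATAT, had 5, 5 and 1 reads in *upf1Δ* and 0 in each *prp18Δupf1Δ* library, at least 2.30-fold lower against the floor of 3 reads. Its edgeR call (adjusted p = 0.0226) was lost without any single library other than *upf1Δ* replicate 3 (adjusted p = 0.0569 to 0.103), and DESeq2 gave an adjusted p of 0.0518. The most-read junction, to a TCG 29 nt upstream of the annotated 3′SS, had 12 reads in *upf1Δ* and 1 in *prp18Δupf1Δ* and did not pass (adjusted p = 0.0783 by edgeR).

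*RPS14B* held a larger one, from GTTGTT 317 nt into the intron, with 29, 46 and 44 reads in *upf1Δ* and 0, 4 and 6 in *prp18Δupf1Δ*. FAnS was 2.22 ± 0.25% against 0.381 ± 0.356% (SD, n = 3), a log2 change of −2.49 (standard error 0.50, adjusted p = 5.39e-05 by edgeR). All 168 gapped reads of this junction were placed by BBMap alone, while 98.9% of annotated *RPS14B* reads were placed by STAR alone; the part of the aligners in this value was not tested. The other junction, to an AAG at +12, had 10 and 2 reads in all and a log2 change of −1.12 (adjusted p = 0.44 by edgeR). Both *RPS14B* junctions can be placed in more than 1 way, with 1 identical base at their ends.

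*RPS9B* held 2 of the 4 rises. Its 3′SS is followed by gag, and a junction to that GAG, 3 nt downstream, had 1, 0 and 1 reads in *upf1Δ* and 27, 26 and 18 in *prp18Δupf1Δ*. Pooled FAnS was 57.4-fold higher (95% counting interval 15.3 to 483), with a log2 change of 5.56 (standard error 0.69, adjusted p = 6.64e-10 by edgeR). The product lacks 1 codon and keeps the annotated stop, with 194 codons.

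The AGG 1 nt downstream had 0, 5 and 3 reads against 12, 31 and 18, a log2 change of 3.55 (standard error 0.59, adjusted p = 1.67e-06 by edgeR), and its frame stops after 27 codons. Even so, FAnS reached 0.184 ± 0.021% at the GAG and 0.160 ± 0.073% at the AGG in *prp18Δupf1Δ* (SD, n = 3), so both were rare beside the annotated junction. Both calls held without replicate 1 of both strains, at log2 changes of 5.97 and 3.45.

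*RPS9A* has the same gag after its 3′SS, and a junction to it had 0, 0 and 1 reads in *upf1Δ* and 0, 1 and 2 in *prp18Δupf1Δ*, under the minimum of 6 gapped reads for a test. Its AAG at +10 had 4, 2 and 5 reads in *upf1Δ* and 6, 3 and 6 in *prp18Δupf1Δ*, and beside fewer annotated reads FAnS went from 0.272 ± 0.159% to 1.09 ± 0.43% (SD, n = 3). The log2 change was 2.09 (standard error 0.66, adjusted p = 0.0114 by edgeR), the call was lost without *prp18Δupf1Δ* replicate 1 (0.0723) or replicate 3 (0.0859) and by DESeq2 (adjusted p = 0.051), and against annotated plus unspliced reads it was 1.07 (adjusted p = 0.219). The AAG at the same distance in *RPS9B* held 0.029 ± 0.023% and 0.037 ± 0.008%, with a log2 change of 0.29 (adjusted p = 0.782 by edgeR). That site and the GAG of *RPS9A* are described outside the naming rule, with their values known. Whether the changes of both copies differ at these sites was not tested. The second *RPS9A* junction, to an AAG at +23, had 6 and 1 reads.

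The 29 other junctions of members did not pass the threshold. Of the 10 calls, 6 held without replicate 1 of both strains (both *RPL30* junctions, *RPL22A* at +122, *RPS14B* at +317 and both *RPS9B* junctions), beside 5.20% lower and 13.3% higher among all 884. With the replicate number as a block only *RPL22B* at +246 (adjusted p = 0.0774 by edgeR) and *RPL22A* at +8 (0.07) were lost, beside 9.39% lower and 18.8% higher.

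Transcript level was read from the TMM-scaled spliced plus unspliced reads at each intron, given as RPM, so it is relative to the other intron-containing transcripts, and a drop in one gene and a rise of the others cannot be told apart. None of the 7 members passed the edgeR test, with log2 changes from −0.10 in *RPL22A* to −0.48 in *RPS14B*, while 11.0% of introns were lower and 16.2% higher. At an unadjusted p under 0.05 edgeR called 1 member lower and 0 higher, beside 47 and 59 of the 272 introns, and DESeq2 called *RPS14A* lower (−0.29, adjusted p = 0.0345). With the replicate number as a block 5 were called lower, *RPL30* (−0.31), *RPL22B* (−0.24), *RPS14A* (−0.25), *RPS14B* (−0.48) and *RPS9B* (−0.19), with adjusted p of 0.000459 to 0.0261 by edgeR. Beside these, 28.3% of all introns were lower and 82 of 272 higher. Without replicate 1 of both strains all but *RPS9A* were called lower, at −0.20 to −0.44 on the log2 scale, beside 34.2% of all introns lower and 111 of 272 higher.

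**Figure D4:**
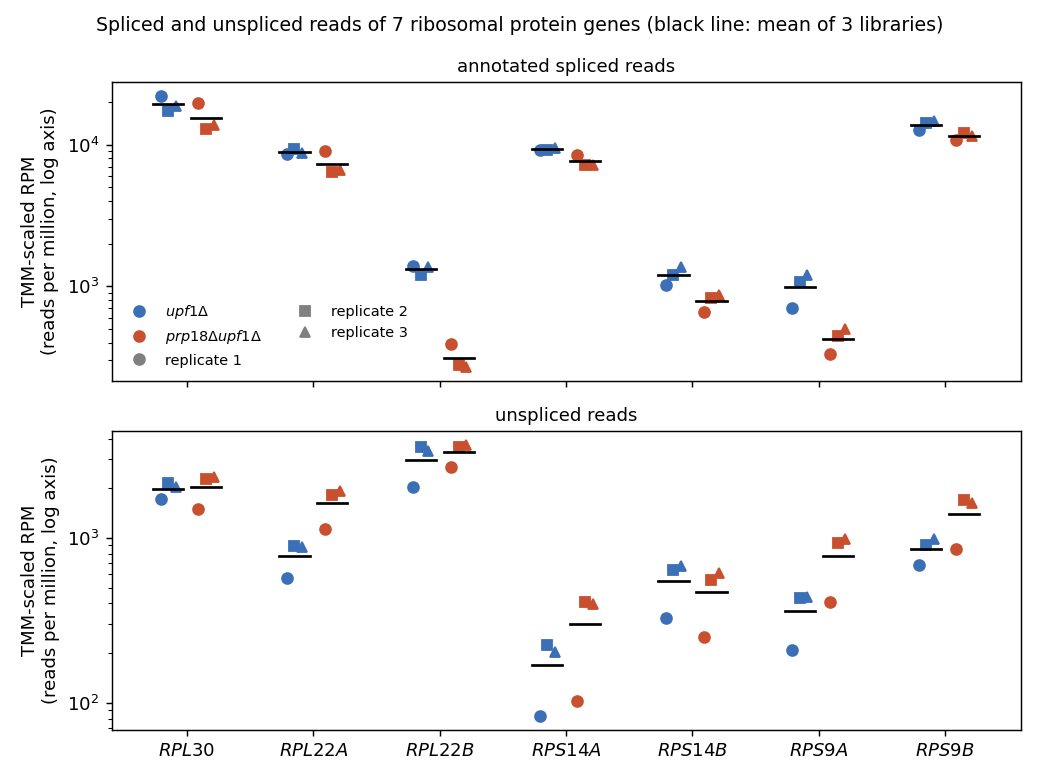
TMM-scaled RPM at each intron on a log axis, spliced above and unspliced below, 1 symbol per library with the mean of 3 as a black line. Spliced *RPL22B* reads dropped from a mean of 1329 to 314 while its unspliced reads overlapped between the strains, and unspliced *RPL22A* reads went from 781 to 1626.

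Split into both forms, the members differed. Spliced *RPL22B* reads were 1401, 1211 and 1373 RPM in *upf1Δ* and 392, 280 and 270 in *prp18Δupf1Δ*, while its unspliced reads were 2039, 3542 and 3353 against 2714, 3541 and 3665. The mean of the spliced form in these units, scaled over spliced plus unspliced reads, was thus 4.23-fold lower without overlap. An edgeR fit on spliced reads alone, which TMM scaled among themselves, gave a log2 change of −1.84 (adjusted p = 0.00057), beside 15.1% of all introns lower and 37 of 272 higher. The unspliced form overlapped, with a 1.11-fold higher mean and an exact permutation p of 0.6.

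*RPS9A* was called in its spliced form too, at a log2 change of −0.97 in the fit on spliced reads alone (adjusted p = 0.0437 by edgeR). That fit called none of the other 5 members, with log2 changes of −0.02 in *RPS9B* to −0.36 in *RPS14B* and adjusted p of 0.213 to 0.897 by edgeR. In the RPM units the spliced *RPS9A* reads were 702, 1072 and 1206 against 331, 450 and 500, and its unspliced reads were 208, 430 and 436 against 410, 932 and 983. Within each replicate number the unspliced reads were 1.97, 2.17 and 2.25 times those of *upf1Δ*, although the strains overlapped through replicate 1 and the exact permutation p was 0.3.

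*RPL22A* unspliced reads were 570, 888 and 884 RPM in *upf1Δ* and 1134, 1822 and 1923 in *prp18Δupf1Δ*, a mean 2.08-fold higher without overlap (exact permutation p = 0.1, the smallest possible). Its spliced reads overlapped, with means of 8858 and 7365. In *RPS14B* and *RPL30* the unspliced form overlapped, at 325, 639 and 672 against 251, 555 and 612 RPM in *RPS14B* and at 1732, 2167 and 2051 against 1500, 2274 and 2346 in *RPL30*.

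Spliced *RPS14B* reads were 1024, 1198 and 1377 RPM against 659, 822 and 867, without overlap, a mean 1.53-fold lower (exact permutation p = 0.1), while the fit on spliced reads alone gave a log2 change of −0.36 and no call (adjusted p = 0.213 by edgeR). *RPS14A* spliced reads were 9221, 9130 and 9416 against 8501, 7229 and 7172, again without overlap, at 1.21-fold lower, and the fit on spliced reads alone gave −0.03 on the log2 scale (adjusted p = 0.796 by edgeR). The spliced form of *RPS9B* had means of 13857 and 11459 RPM, and that of *RPL30* 19479 and 15464.

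Each member has 1 intron, so reads of both copies at their introns can be set against each other without a length term. *RPL22A* gave 85.9%, 88.5% and 86.4% of the spliced *RPL22* reads in *upf1Δ* and 95.8%, 95.8% and 96.1% in *prp18Δupf1Δ*. The mean share was 8.99 points higher in *prp18Δupf1Δ*, without overlap (exact permutation p = 0.1, adjusted p = 0.15 over the 3 pairs). Over spliced plus unspliced reads its share was 69.3 ± 2.92% and 71.1 ± 4.71% (SD, n = 3), with overlap (exact permutation p = 0.5), and the differences within replicates 1 to 3 were 4.0, 0.093 and 1.53 points.

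*RPS9A* gave 5.27%, 6.96% and 7.62% of spliced *RPS9* reads in *upf1Δ* and 2.96%, 3.61% and 4.16% in *prp18Δupf1Δ*, a shift of −3.04 points without overlap (exact permutation p = 0.1, adjusted p = 0.15). Its share of all reads was 8.30 ± 1.67% and 8.42 ± 2.18% (SD, n = 3). Its share of unspliced reads was higher, 28.7 ± 4.71% and 35.1 ± 2.58%, a difference of 6.37 points that became 3.69 without *upf1Δ* replicate 1.

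For *RPS14* the A copy held 88.5 ± 1.39% and 90.6 ± 1.93% of spliced reads (SD, n = 3), with overlap, and was higher in *prp18Δupf1Δ* by 2.80, 1.38 and 1.98 points within replicates 1 to 3. Over all reads the differences within replicates were 3.10, 1.13 and 1.22 points, again with overlap between the strains. Of unspliced reads it held 20.3%, 26.0% and 23.3% in *upf1Δ* and 28.9%, 42.3% and 39.4% in *prp18Δupf1Δ*, without overlap (exact permutation p = 0.1). The mean unspliced share of the A copy was 11.7 points higher in *RPL22* and 6.37 points higher in *RPS9*, also without overlap. Exon 2 of the copies is alike, with 78.0% identical coding bases in *RPL22*, 92.6% in *RPS14* and 91.0% in *RPS9* in an ungapped comparison, and whether spliced reads were placed on the wrong copy was not tested.

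**Figure D5:**
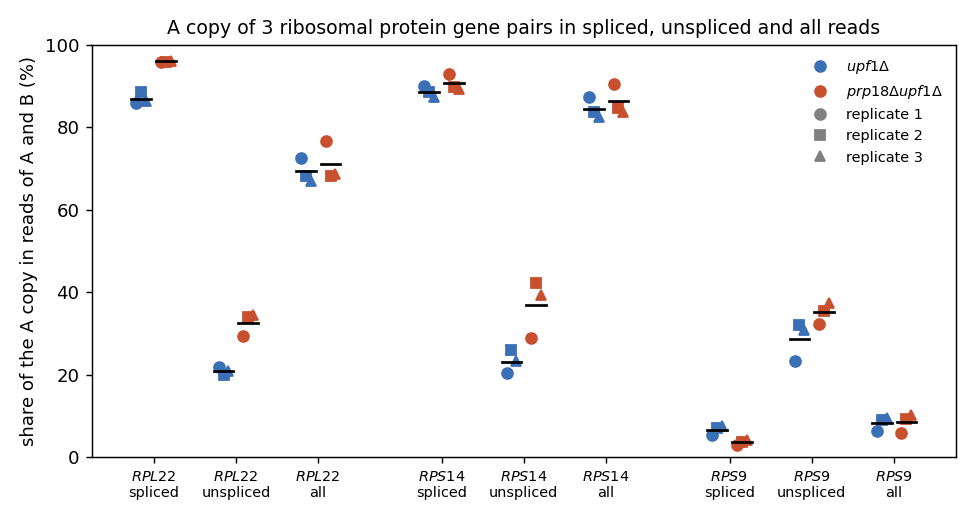
Share of the A copy in the spliced, unspliced and all reads of both copies in percent, 1 symbol per library with the mean as a black line. Spliced *RPL22* reads shifted from 86.9% to 95.9% A copy and spliced *RPS9* reads from 6.62% to 3.58%, while the shares in all reads overlapped in the 3 pairs.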

How the data were processed

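The authors trimmed reads with cutadapt 1.18, aligned them to R64 with BBMap and STAR 2.7.0d and deposited 1 junction table per library. Junction reads are deposited raw counts, and unspliced reads are an estimated count, the authors' mean of the reads at both splice sites. The deposited SE of annotated junctions is a fraction, and FAnS and the SE of alternative junctions are each a deposited ratio. Deposited junction reads were divided by the deposited read total of the intron for SE and by its annotated reads for FAnS. This matched all 12588 SE and all 12550 FAnS entries. The SE used here, over annotated plus unspliced reads, was not part of that check. The 5′SS and 3′SS of all 293 introns matched R64.

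Members and lists were chosen with earlier results of these data known. Every member was named, with every junction past the threshold and the 2 most-read ones of each gene. Alternative junctions needed perfect matches over 10 bp on the upstream and 40 bp on the downstream side, at least 50% of reads without a mismatch within 10 bp and 6 gapped reads. Introns had to be listed in every library (272 of 293). The minimum of 10 reads in all and 1 in every library removed none of these. For the test of annotated splicing the doubled, whole-number unspliced reads were used. Tests were edgeR 4.0.16 quasi-likelihood fits over all introns or junctions with a term per library (abundance: TMM and strain). They were also run on simulated counts with a fixed dispersion and no replicate effect, unlike these libraries, where replicate 1 stood apart. DESeq2 1.42.0, limma 3.58.1, other filters and scalings, a replicate block and left-out libraries were alternatives. A separate test of reads at the unspliced 5′SS and 3′SS was not run, because the tables hold their mean. Wilson 95% intervals of member SE were widest for *RPS9A* in *prp18Δupf1Δ* replicate 1, at 41.5 to 47.9%. These and the intervals of FAnS ratios cover counting error only. Replicate numbers were checked by correlating deviations from the strain mean over 254 introns, which gave 0.59, 0.35 and 0.41 for numbers 1 to 3 across the strains. Replicates 2 and 3 also correlated across numbers (0.35 and 0.36), so the check set apart replicate 1 alone. A pairing of replicates 2 and 3 by number is not shown, and the block was kept as an alternative.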

Additional observations from a re-analysis of the deposited data

How the results depend on the processing

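The alternatives are those named with the methods. Annotated splicing was called lower in 4 members and higher in 0 in the reported fit. These counts became 1 lower and 4 higher with TMM over all columns, which reversed *RPL30* (1.52), *RPL22A* (0.55), *RPS14A* (0.89), *RPS14B* (1.51) and *RPS9B* (0.96) because that scaling sets spliced and unspliced columns each to their own centre. They were 7 lower without replicate 1 of both strains, and 2 to 7 lower with 1 library left out. Alternative junctions, 6 lower and 4 higher, became 3 and 2 by DESeq2, 10 and 2 against annotated plus unspliced reads, 3 lower without the filter on overhangs and mismatches, and 2 higher with at least 1 gapped read or without replicate 1 of both strains, and ranged from 4 to 6 lower and 2 to 4 higher with 1 library left out. Abundance, 0 lower, became 1 by DESeq2, 2 on annotated spliced reads alone, 5 with the replicate block, 6 without replicate 1 of both strains and 0 to 2 with 1 library left out. The *RPS9A* estimate ranged from −0.39 to 0.086 with 1 library left out, positive without *upf1Δ* replicate 3 (0.025) or *prp18Δupf1Δ* replicate 1. The A share of all reads changed by 1.87 points in *RPL22* (−0.85 to 3.53 with 1 library left out, negative without *prp18Δupf1Δ* replicate 1), 1.82 in *RPS14* (−0.27 to 3.26, negative without that same library) and 0.12 in *RPS9* (−0.83 to 1.35, or −3.04 on spliced reads alone). The replicate block changed no call beyond those given beside the results. Over all features the counts moved as well: annotated splicing, 222 of 272 introns lower and 0 higher, became 61 and 61 with TMM over all columns. Of 884 alternative junctions 95 were lower and 186 higher, which became 55 and 142 by DESeq2, 122 and 148 against annotated plus unspliced reads, 62 and 148 of 1244 without the filter on overhangs and mismatches, 55 and 138 of 2385 with at least 1 gapped read, and 74 and 122 of 391 with at least 20. Abundance, 30 lower and 44 higher, became 44 and 49 by DESeq2 and 41 and 37 on annotated spliced reads alone. The cause of the other changes was not tested. The alternatives on reads at the unspliced 5′SS or 3′SS alone were not run, since the tables give their mean. The called junctions of *RPS14A*, *RPS9A* and *RPL22B* (at +246) and *RPL22A* at +8 had 11 to 26 reads in all and rest on few reads.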
